A study of Mus musculus with 7 samples.

Results

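Binding of the histone deacetylase HDAC1 was examined at 8 homeobox genes of the proximal limb, Meis1, Meis2, Meis3, Pbx2, Pbx3, Shox2, Irx3 and Irx5. A peak was assigned to a gene when it covered at least 1 bp of the gene body or of the 20 kb on either side. This gave 35 of the 15347 HDAC1 peaks in the deposited list. The 35 peaks lay at 7 of the 8 genes, and the locus of Meis3 held none. Of all 21851 protein-coding genes, 59.2% had a peak within the same distance.

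Chromatin came from wild-type Swiss Webster mouse embryos at the embryonic stage E11.5 (40 to 44 somites), with forelimb and hindlimb buds pooled. ChIP-seq, the sequencing of DNA brought down with a protein by an antibody, was performed on 4 HDAC1 samples, and 3 input samples of chromatin without antibody served as controls. Each sample is described in the labels as coming from 3 litters. No mutant, treatment or second stage was included, so the values below describe where HDAC1 was found in whole limb buds and which cells of the bud carried it cannot be told apart.

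Meis and Pbx proteins are TALE homeodomain factors that bind DNA together with each other and with Hox proteins. In the limb bud Meis1 and Meis2 mark the proximal domain next to the body wall, where retinoic acid signaling maintains them, and Pbx proteins are their partners. Shox2 is a homeodomain factor needed for the stylopod, the segment of the humerus and femur. Irx3 and Irx5 are Iroquois homeodomain factors that act early in the limb field. HDAC1 removes acetyl groups from histone tails. It has no sequence-specific DNA-binding domain and is brought to chromatin by larger complexes.

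In the deposited list each peak has only its coordinates, from which its length follows, and its position in the ranked order, where position 1 is the first peak. A fold change and a false discovery rate per peak, which the study tabulates elsewhere, were not used here. The list holds no read counts or heights and no value for a single sample, so it does not show the depth behind a peak and no value has a replicate error. Counts and medians are therefore given as descriptions beside those over all peaks or all protein-coding genes. Limb marker genes could not be checked, since the list measures no expression. Coordinates are those of mouse build mm10. They are printed as deposited, and whether starts count from 0 or 1 was not stated, which leaves an uncertainty of 1 bp.

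The letters TGATTGAC, a composite of a PBX and a MEIS half-site, were found in 3 of the 35 peaks, and each of these peaks covered the promoter of a member: Meis1, Meis2 and Irx3. These matches are shown because Meis1 and Meis2 encode PBX partners and the 3 were the only member peaks with the composite. Each is printed with the bases that follow it, the match in capitals, on the strand on which it reads TGATTGAC. All 3 stretches lie in the 5′ untranslated part of an exon, 357 bp, 566 bp and 583 bp after the first protein-coding start of Meis1, Meis2 and Irx3.
Meis1, chr11:19018599-19018628, minus strand: TGATTGACagctggagtggcagaaagccat
Meis2, chr2:116065244-116065273, minus strand: TGATTGACagctggagtggcaaaaagccat
Irx3, chr8:91801477-91801506, plus strand, opposite to the gene: TGATTGACatttctacggggcctcaagccc

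The Meis1 and Meis2 stretches were identical at 29 of 30 bases, and the Irx3 stretch shared 15 of 30 bases with each of them. Both values include the 8 letters of the match, which the stretches share by the way they were picked. The same 8 letters were present in 8.57% of the 35 whole peaks (Wilson 95% interval 2.96 to 22.4%) and in 0.867% of all 15347 whole peaks. The Meis1 and Meis2 matches lie in near-identical stretches of paralogues, so they are not independent. Neither the share nor its interval allows for this. Long peaks hold more letters: of the 478 peaks of at least 2000 bp in the list, 24 (5.02%) held the composite, as did 2 of the 7 member peaks of that length. No match fell within the 300 bp at the centre of a member peak, where 0.313% of all peaks had one.

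An own-promoter peak was defined as one in a window that reached from 2 kb before to 1 kb after any protein-coding start of the gene. By this definition 7 of the 8 genes had a promoter peak, against 44.1% of all protein-coding genes. At least 2 promoter peaks were found at 4 of the 8 genes (Meis2, Pbx2, Shox2 and Irx5), against 9.41% of all protein-coding genes. A promoter peak of at least 2000 bp was found at 5 of the 8 (Meis1, Meis2, Pbx3, Shox2 and Irx3), against 2.11%. This cut was chosen after values had been seen, and Pbx3 reached it with exactly 2000 bp. The stacked counts by position show that promoter peaks made up 17 of the 35.

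**Figure D1:**
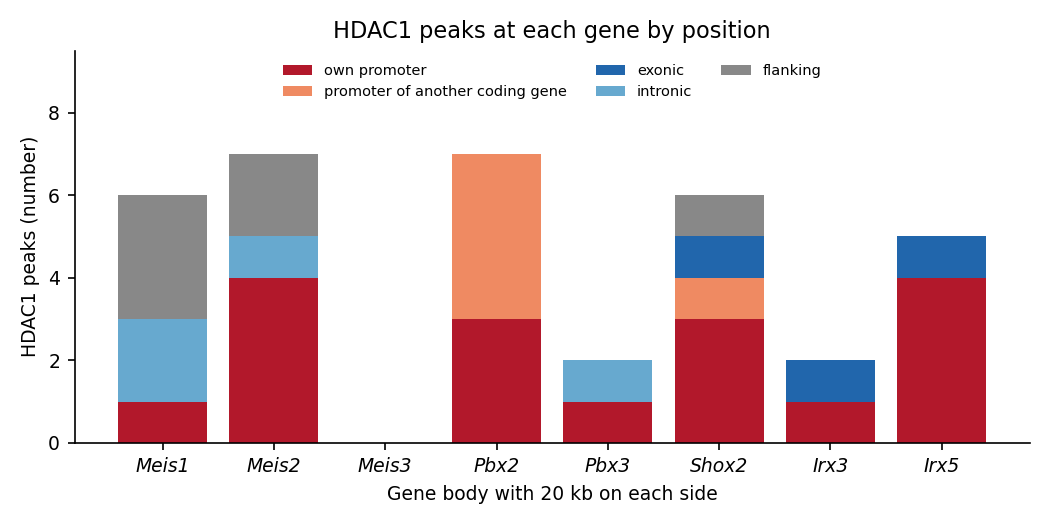
Number of HDAC1 peaks (vertical axis) in the gene body or the 20 kb on either side of each of the 8 genes (horizontal axis), coloured by position. Meis2 and Pbx2 had 7 peaks each, Meis1 and Shox2 had 6, Irx5 had 5, Pbx3 and Irx3 had 2, and Meis3 had none.

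Among the 9630 protein-coding genes with a promoter peak, the median length of all promoter peaks of a gene was 750 bp in sum. The sum was 7300 bp at Meis1, 6700 bp at Shox2, 6400 bp at Meis2, 2500 bp at Irx3, 2300 bp at Irx5, 2000 bp at Pbx3 and 1950 bp at Pbx2. All 7 values were above that median. A share of 0.187% of the 9630 genes had as much as Meis1, 0.312% as much as Shox2 and 0.395% as much as Meis2. The shares for Irx3, Irx5, Pbx3 and Pbx2 were 3.53%, 4.44%, 6.88% and 7.27%. Meis1, Shox2 and Meis2 were thus among the broadest promoters of the list, and the other members had lengths that several percent of genes reached.

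The map of peaks around the starts shows how the cover was placed. Most of it lay on the transcribed side. In the 5 kb after the first protein-coding start, 5000 bp of Meis1, 5000 bp of Shox2 and 4690 bp of Meis2 were covered, against 1314 bp, 2078 bp and 2010 bp in the 5 kb before it. The values after and before the start were 2925 bp and 1375 bp for Irx5, 2900 bp and 0 bp for Irx3, 1950 bp and 950 bp for Pbx2, and 1495 bp and 755 bp for Pbx3. The 950 bp before Pbx2 were a peak at the promoter of its neighbour Gpsm3. The 2078 bp before Shox2 included a peak of 450 bp at the promoter of its neighbour Rsrc1 alone. More cover after than before the start was found in 7 of the 7 members with a promoter peak, a direction shared by 76.4% of the 9630 genes with a promoter peak.

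**Figure D2:**
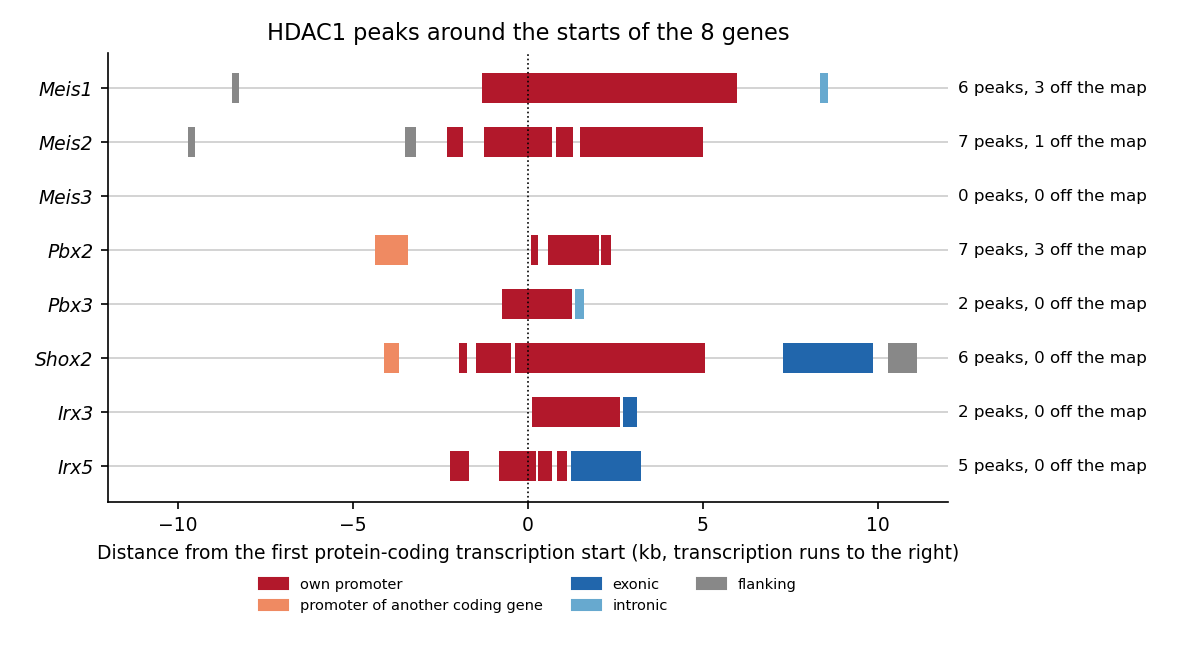
HDAC1 peaks (coloured blocks) at each of the 8 genes by distance from the first protein-coding start (horizontal axis, kb, transcription to the right), with the number of peaks per gene and how many lie outside the 12 kb shown on either side. The blocks at Meis1, Meis2 and Shox2 reach about 5 kb or more into the gene, and the line of Meis3 is empty.

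Averaged over the 7 members with a promoter peak, 87.0% of the bases in the first 250 bp after the start were in a peak, and 76.2% over all 8 with Meis3 at 0. The mean was 71.8% over the protein-coding genes with a promoter peak and 31.6% over all protein-coding genes. The averages lay farther apart deeper in the gene. From 1000 to 1250 bp after the start they were 94% for the 7 members and 15.0% for genes with a promoter peak, and each of the 7 was at least 50% covered there. From 2000 to 2250 bp they were 82.9% and 4.02%. From 4500 to 4750 bp the average of 42.9% over the 7 members came from Meis1, Meis2 and Shox2, against 1.32% for genes with a promoter peak.

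**Figure D3:**
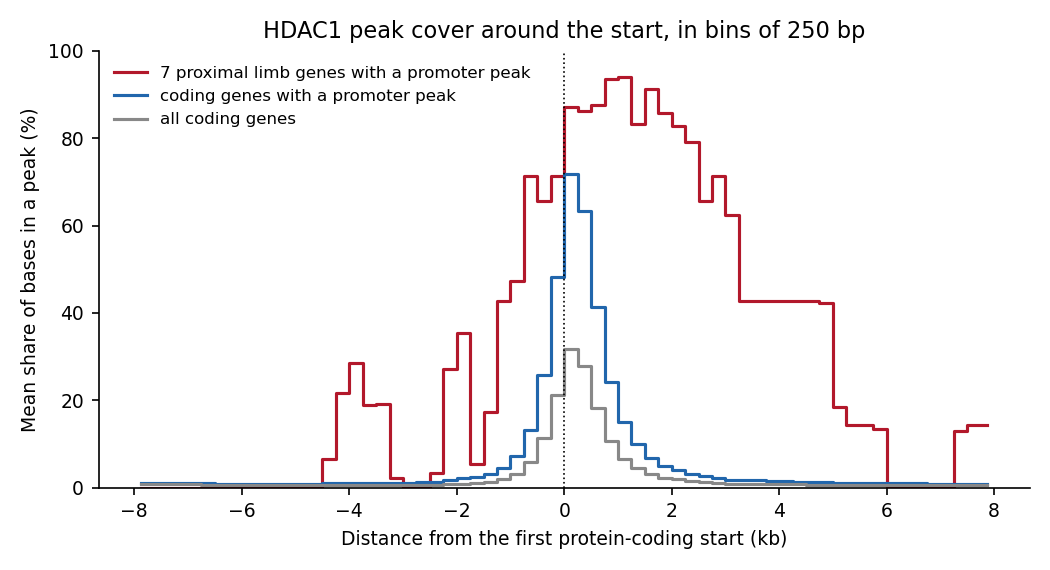
Mean share of bases in an HDAC1 peak (vertical axis, %) in bins of 250 bp by distance from the first protein-coding start (horizontal axis, kb) for the 7 members with a promoter peak, all protein-coding genes with a promoter peak and all protein-coding genes. From 2000 to 2250 bp after the start the member line is at 82.9% and the line of genes with a promoter peak at 4.02%.

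Meis1, ENSMUSG00000020160, spans 139169 bp on the minus strand (chr11:18879817-19018985) and had 6 peaks. Its promoter peak, chr11:19013000-19020299, was the longest of the 35 at 7300 bp and stood at position 807. It ran from 1314 bp upstream of the first start to 5985 bp into the gene, covered exons 1 to 4 and all 4 protein-coding starts, and crossed the noncoding gene Gm16141. Among the first 3836 peaks of the list, where it stood, the median length was 1050 bp.

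The other 5 Meis1 peaks were short, from 200 to 350 bp, and stood at positions 8071 to 14617. Both intronic ones, in introns 8 and 6 of 300 bp and 250 bp, stood at positions 12431 and 9445, the latter overlapping an exon of the noncoding gene Gm16140. Of the 3 flanking ones, 1 of 350 bp lay at the start of the noncoding gene 8430419K02Rik, and the others lay just past the end of Meis1, 140986 bp from its first start, and 8265 bp upstream of that start. Those 2 had a ratio of observed to expected CpG of 1.11 and 1.09, the highest values among the 35 peaks. The peak past the end is printed whole because of its 21 CpG in 200 bp, with each CG in capitals. It overlaps no annotated exon.
Meis1 flanking peak, chr11:18877800-18877999, plus strand: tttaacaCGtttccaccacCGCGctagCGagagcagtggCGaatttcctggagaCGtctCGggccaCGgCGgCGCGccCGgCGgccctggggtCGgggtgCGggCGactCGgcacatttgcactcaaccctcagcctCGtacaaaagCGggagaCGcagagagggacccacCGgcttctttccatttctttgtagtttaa

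Meis2, ENSMUSG00000027210, spans 202776 bp on the minus strand (chr2:115863064-116065839) and had 7 peaks, of which 4 were at its promoter. From the gene outwards these were 3500 bp long at position 622, 500 bp at position 9691, 1950 bp at position 3656 and 450 bp at position 8411. The gaps between them were 200 bp, 100 bp and 600 bp, so that the cover ran with little interruption from -2310 bp to 4989 bp relative to the first start. Merging peaks no more than 1000 bp apart joined these 4 and the next flanking peak into a region of 8500 bp. That flanking peak is printed because it lies outside every annotated exon. Its 300 bp held none of the 8 motifs searched and only 3 CpG, in capitals, with a GC content of 38.7%, against 61.5% in the flanking peak of Meis1.
Meis2 flanking peak, chr2:116069050-116069349, plus strand: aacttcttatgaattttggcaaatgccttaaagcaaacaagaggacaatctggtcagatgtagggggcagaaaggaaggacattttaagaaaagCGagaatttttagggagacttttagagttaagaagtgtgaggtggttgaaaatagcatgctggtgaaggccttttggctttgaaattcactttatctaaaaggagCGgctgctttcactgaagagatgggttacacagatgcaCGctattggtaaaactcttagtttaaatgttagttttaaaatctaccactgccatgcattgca

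The last flanking peak of Meis2, 200 bp at position 11666, lay 9511 bp upstream at the noncoding gene 2810405F15Rik. A single intronic peak of 550 bp, in intron 9 at position 13492, lay 191350 bp from the next. Peaks therefore covered only 2.58% of the gene body of Meis2 and 4.70% of that of Meis1, nearly all of it at the promoter end.

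Meis3, ENSMUSG00000041420, a shorter Meis paralogue of 11415 bp (chr7:16175090-16186504, plus strand), had no peak at either of its 2 protein-coding starts and none within 20 kb. The nearest peak, of 200 bp at position 13729, lay 35596 bp past its end at the promoter of Dhx34, an RNA helicase gene. A site that is absent from the list may still be bound below the threshold of the peak caller, and with no counts that limit cannot be sized here.

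Pbx3, ENSMUSG00000038718, spans 201686 bp (chr2:34171457-34373142, minus strand) and had 2 peaks 100 bp apart, covering 1.12% of the gene body. The promoter peak of 2000 bp at position 2169 ran from 755 bp upstream to 1244 bp downstream of the first start and covered both protein-coding starts. An intronic peak of 250 bp followed at position 9870 in intron 2. The rest of this long gene held no peak.

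The bases next to the starts of Meis3 and Pbx3 differed in CpG. In the 250 bp before the first protein-coding start, Pbx3 had 46 CpG and Meis3 had 6. The medians were 17 over protein-coding genes with a promoter peak and 4 over those without. The last 90 bases before the start of each are printed with each CG in capitals, 19 in Pbx3 and 1 in Meis3, to show a start inside and a start outside the peaks.
Pbx3, chr2:34372045-34372134, minus strand: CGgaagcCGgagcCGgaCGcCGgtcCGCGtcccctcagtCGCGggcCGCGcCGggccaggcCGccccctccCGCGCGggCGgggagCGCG
Meis3, chr7:16175185-16175274, plus strand: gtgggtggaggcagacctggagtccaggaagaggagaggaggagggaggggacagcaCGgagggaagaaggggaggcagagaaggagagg

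The CpG counts did not follow the cover by peaks. Pbx2, whose promoter did have peaks, also had 6 CpG in these 250 bp, none of which lay in a peak. The counts were 11 in Meis2 and in Shox2 and 14 in Meis1, the genes of the broadest cover, all below the median of 17. They were 19 in Irx3 and 23 in Irx5.

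Pbx2, ENSMUSG00000034673, is short (6135 bp, chr17:34591266-34597400, plus strand) and lies among closely spaced genes. Of its 7 peaks, 3 were at its own promoter, all after the first start: 200 bp at position 12932, 1450 bp at position 3267 and 300 bp at position 14809. They covered 31.8% of the gene body and 2 of the 3 protein-coding starts. The first of them lay partly in an exon of Gpsm3, so it cannot be assigned to Pbx2 alone.

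The other 4 peaks of the Pbx2 locus were at promoters of neighbours. A peak of 950 bp at position 8175 reached the window of Gpsm3, a regulator of G-protein signaling, and overlapped an exon of Notch4, a Notch receptor. Peaks of 300 bp at position 5822 and 500 bp at position 13011 lay in the windows of both Agpat1, an acyltransferase of phospholipid synthesis, and Rnf5, a ubiquitin ligase. A peak of 250 bp at position 14100 lay at Agpat1. The high count of this locus, reached by 1.13% of protein-coding genes, thus counts its neighbours too.

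Shox2, ENSMUSG00000027833, is 10045 bp long (chr3:66971727-66981771, minus strand), and peaks covered 76.4% of its body. Its promoter peak, chr3:66976700-66982149, was 5450 bp long and stood at position 344, the best position of the 35. It ran from -378 bp to 5071 bp relative to the first start over exons 1 and 2 and covered all 3 protein-coding starts. A second peak of 2600 bp at position 2539 lay over the last exon, with 2044 bp of exon 5 inside it. A flanking peak of 850 bp at position 11536 followed 400 bp past it, beyond the end of the gene.

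Upstream of Shox2 stood a peak of 1000 bp at position 3162 and a peak of 250 bp at position 14659, also at its promoter. The neighbour Rsrc1, which encodes a splicing-related protein, is transcribed from the opposite strand with a start inside Shox2 and others upstream of it, so these peaks and the long one lie in the promoter windows of both genes. The remaining peak, 450 bp at position 1477, lay 3679 bp upstream at the promoter of Rsrc1 alone.

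The PBX-HOX composite TGATTNAT was found in 3 member peaks, 2 of them at Shox2 and 1 at Meis2. The long Shox2 promoter peak held 2 matches, and the peak next to it held 1. The stretches of 60 bases around the Shox2 matches are printed in plus-strand letters with the match in capitals. They lie at 4997 bp, 1564 bp and -1417 bp relative to the first start, outside annotated exons. The first match reads TGATTGAT, the second TGATTAAT and the last TGATTTAT.
Shox2 long peak, chr3:66976741-66976800: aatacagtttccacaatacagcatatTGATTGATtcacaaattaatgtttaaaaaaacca
Shox2 long peak, chr3:66980174-66980233: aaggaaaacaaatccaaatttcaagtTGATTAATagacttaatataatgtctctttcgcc
Shox2 upstream peak, chr3:66983155-66983214: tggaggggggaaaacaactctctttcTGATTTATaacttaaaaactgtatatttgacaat

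The Meis2 match lay 1886 bp after the first start in the peak of 3500 bp. Whole peaks with TGATTNAT made up 8.57% of the 35 and 3.06% of all peaks. In the central 300 bp the composite was in 0 of 35 and 1.56% of all peaks, and in the central 600 bp in 0 of 35 and 3.37%. Among the peaks of at least 2000 bp these were 2 of 7 member peaks and 13.8% of the 478.

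Irx3, ENSMUSG00000031734, is the shortest gene of the 8 (3543 bp, chr8:91798525-91802067, minus strand), and its 2 peaks covered 81.9% of it. The promoter peak of 2500 bp at position 3204 began 118 bp after the first start and took in exons 1 to 3. A peak of 400 bp at position 6968 lay 100 bp farther on and touched exon 4. Both peaks lie in the start window of the noncoding gene Irx3os, which is transcribed from the opposite strand. No cover was found in the 5 kb before the start.

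Irx5, ENSMUSG00000031737, spans 18662 bp (chr8:92357625-92376286, plus strand) and had 5 peaks with gaps of 850 bp, 50 bp, 150 bp and 100 bp. From upstream to downstream they were 550 bp at position 4157, 1050 bp at position 6847, 400 bp at position 13188, 300 bp at position 8947 and 2000 bp at position 7152. The first 4 were at the promoter of Irx5, and the last covered exons 2 and 3. The first 2 also lay in the start window of the noncoding gene Crnde. Merged, the 5 spanned 5450 bp, although no single promoter peak of Irx5 was longer than 1050 bp.

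The Irx5 peak at position 8947 lies in intron 1. It is printed because it lies outside every annotated exon and held 3 overlapping copies of the GC box GGGCGG, in capitals. It also held 28 CpG.
Irx5 promoter peak, chr8:92358450-92358749, plus strand: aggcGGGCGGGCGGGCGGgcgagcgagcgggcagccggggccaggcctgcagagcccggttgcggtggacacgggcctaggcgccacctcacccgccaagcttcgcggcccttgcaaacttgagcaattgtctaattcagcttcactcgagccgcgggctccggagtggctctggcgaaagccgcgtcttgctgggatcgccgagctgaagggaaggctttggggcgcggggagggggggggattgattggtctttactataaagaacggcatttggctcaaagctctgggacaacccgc

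The 17 own-promoter peaks had a median length of 1000 bp and a median position of 4157. The 5 peaks at promoters of neighbours had a median of 450 bp, the 3 exonic ones 2000 bp, the 4 intronic ones 275 bp and the 6 flanking ones 250 bp. Together 22 of the 35 peaks (62.9%, Wilson 95% interval 46.3 to 76.8%) lay at the promoter of a protein-coding gene. Over the whole list this share was 70.1%. The interval covers counting error only. It is no test, since the 35 are all peaks of chosen genes and many lie close together. The 13 peaks away from promoters had a median length of 300 bp, the same as the 4590 such peaks of the list.

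The median length of the 35 peaks was 450 bp (95% interval 300 to 950 bp), as it was over all peaks. Their lengths ran from 200 to 7300 bp. Peaks of at least 2000 bp were 7 of the 35, against 3.11% of all peaks. The median position was 8411 (95% interval 5822 to 11666), and 15 of the 35 stood in the first part of the list that holds 50% of the peaks. In 4 equal parts of the list, from first to last, the members had 10, 5, 7 and 13 peaks. Position and length moved together over the whole list, with median lengths of 1050 bp, 600 bp, 350 bp and 250 bp in these parts, so they are not separate measures of a peak.

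**Figure D4:**
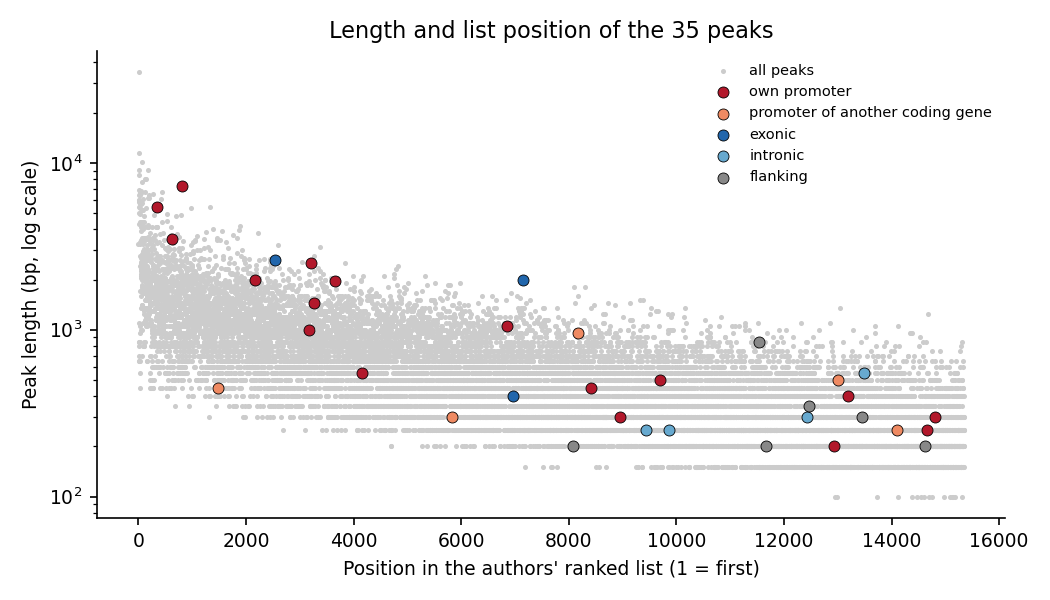
Length of each HDAC1 peak (vertical axis, bp, log scale) against its position in the ranked list (horizontal axis), with all 15347 peaks in grey and the 35 member peaks coloured by class. The 3 longest member peaks, at Meis1, Shox2 and Meis2, stand at positions 807, 344 and 622, and the flanking and intronic ones stand from position 8071 onwards.

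Peaks at these genes came in groups. Another peak lay within 500 bp of 22 of the 35 (62.9%), against 31.8% of all peaks, and the median distance to the nearest other peak was 300 bp against 11700 bp. These groups were in the loci of Meis2, Pbx2, Pbx3, Shox2, Irx3 and Irx5, while at Meis1 the promoter held a single long peak. The 22 include the peaks at positions 5822, 13011 and 14100, which lie at promoters of Agpat1 and Rnf5, neighbours of Pbx2. The distance of 500 bp was chosen after values had been seen. The start window of a noncoding gene held 10 of the 35 peaks, against 18.3% of all peaks.

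In base composition the own-promoter peaks of the members had lower medians than promoter peaks at large, though not at every gene. Their median GC content was 55% and their median ratio of observed to expected CpG 0.631, against 65.4% and 0.817 for the 10757 promoter peaks of the list. The medians differed in the same direction in both ranges of length. Among promoter peaks of at least 2000 bp the values were 55.3% and 0.619 for the 5 of the members and 62.5% and 0.775 for all 435. Among shorter ones they were 54.1% and 0.647 for 12 and 65.5% and 0.819 for 10322. Values of the members were spread widely, from 30% GC in the peak of 250 bp upstream of Shox2 to 75% in an exon 1 peak of Irx5. By gene, own-promoter peaks had 48.2% GC at Meis1, 48 to 55.3% at Meis2 and 30 to 50.8% at Shox2. They had 66.2% at Irx3, 70.1% at Pbx3, 51 to 66.1% at Pbx2 and 57.3 to 75% at Irx5. The low GC median thus came mostly from Meis1, Meis2 and Shox2. In the CpG ratio the own-promoter peaks of Pbx2 were low as well, at 0.231, 0.533 and 0.475. The long peaks of Pbx3 and Irx3 were above the list medians. Away from promoters, the members' medians of 53% and 0.415 were near the 52.5% and 0.371 of the list.

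**Figure D5:**
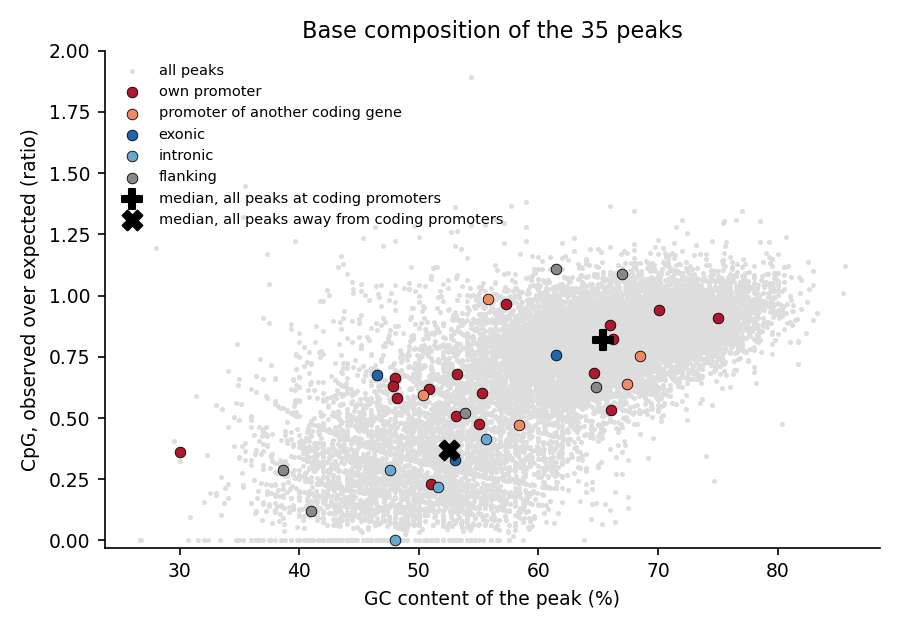
Ratio of observed to expected CpG (vertical axis) against GC content (horizontal axis, %) for all HDAC1 peaks in grey and the 35 member peaks coloured by class, with the medians of all promoter peaks and of all peaks away from promoters as black marks. Own-promoter peaks of the members fall on both sides of the promoter median of 65.4%, with more of them below it.

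Other motifs were searched as exact letters on either strand in the 300 bp at the centre of each peak. The MEIS core TGACAG was in 6 of 35 (17.1%) and in 14.3% of all peaks. The homeodomain core TAATTA was in 2 of 35 (5.71%) and in 3.60% of all. The E-box CAGCTG was in 7 of 35 (20%) and in 19.5% of all. In this window these shares lay close to those of the list. In whole peaks, which differ in length, the MEIS core was in 40% of the 35 (Wilson 95% interval 25.6 to 56.4%) and 25.7% of all. The homeodomain core was in 20% (10.0 to 35.9%) and 6.27% of all. Among peaks of at least 2000 bp the homeodomain core was in 2 of 7 member peaks and 28.7% of the 478. The MEIS core was in 6 of these 7 and 63.2% of the 478. In the central 300 bp the GC box was in 10 of 35 (28.6%, Wilson 95% interval 16.3 to 45.1%) and in 49.8% of all. In the same 300 bp the GLI site GACCACCCA and the E-box CACGTG were in 0 of 35 (upper end of the Wilson interval 9.89%). Their shares of all peaks were 0.326% and 7.13%. In whole peaks CACGTG was in 8.57% of the 35 and 14.2% of all.

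The members were set beside 3 other lists of genes. Among 10 other TALE homeobox genes, 8 had a promoter peak, 1 had at least 2 and 2 had a promoter peak of at least 2000 bp. The median sum of promoter peak lengths over all 10 was 925 bp, with a range of 0 to 6100 bp, against 2400 bp and 0 to 7300 bp for the 8 members. Pbx4 and Irx1 had no promoter peak. Pknox2 had the most peaks with 12, and Pbx4, Tgif2 and Irx4 had 3 each. The count of promoter peaks was thus 8 of 10 there and 7 of 8 among the members.

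Of 7 genes of the retinoic acid pathway, the signal that maintains Meis1 and Meis2, all 7 had a promoter peak. Of these genes 5 had at least 2 promoter peaks, and 3 had one of at least 2000 bp. Their median sum was 3350 bp, with a range of 800 to 7100 bp. Rara with 13 peaks, Cyp26a1 with 8 and Rarg with 5 had the most. Of 5 distal Hox genes, which act at the other end of the limb axis, all 5 had a promoter peak and the median sum was 3800 bp, with a range of 2300 to 35050 bp. At least 2 promoter peaks were found at 3 of the 5 Hox genes, and one of at least 2000 bp at 3. Among the 8 members these counts were 4 and 5, so neither trait was particular to the members. Hoxd11 with 22 peaks, Hoxd12 with 20 and Hoxd13 with 18 had the most, and as neighbours in 1 cluster they share peaks. The ranges of the 4 sets overlapped, and no test of the medians was made.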

How the data were processed

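HDAC1 ChIP-seq was performed by the authors on 4 samples against 3 inputs. Per the labels, chromatin came from cells dissociated with Liberase, and libraries were made with either of 2 kits, with no record of which sample had which. The submitters' processing notes name Bowtie2 2.2.5 and mm10. The authors called peaks with CisGenome on the samples together. The deposited values are genome coordinates in bp (chromosome, start, end), with no count, height or score. All starts are multiples of 50 bp. Reads per sample were not analysed here.

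Genes and starts were taken from GENCODE M21 and sequence from the reference of the same build. Lengths are end minus start plus 1. A peak belongs to a gene with at least 1 bp in the gene body or 20 kb on either side, and to a promoter with at least 1 bp from 2 kb before to 1 kb after a protein-coding start, the window of the study. Other peaks are exonic, intronic or flanking. With several classes possible, the own promoter came first, then promoters of other protein-coding genes. "First start" is the protein-coding start farthest upstream. Motifs were exact matches on both strands. Medians have 95% order-statistic intervals and shares Wilson intervals. Both treat peaks as independent, which neighbouring peaks are not, so they are descriptions only. No test was made, since peaks and genes are not replicates.

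All 8 genes are named, as are genes whose promoter holds a peak in their loci, and of the 3 other lists the genes without a promoter peak and those with the most peaks. For 1 gene that this rule would name, the values are not reported here. The printed flanking and intronic peaks were the best ranked outside exons for their gene. The members and lists were chosen with earlier results of these data known. The length of 2000 bp, the distance of 500 bp, the 5 kb sides, the composition and CpG comparisons and the printed PBX and upstream stretches were chosen after values had been seen, and so were the noncoding genes named. Overlap calls were tested on simulated data and were right for 2000 of 2000 loci. Python 3.11.15, numpy 2.4.6, scipy 1.17.1, pysam 0.24.0 and matplotlib 3.10.9 were used.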

Additional observations from a re-analysis of the deposited data

How the results depend on the processing

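Of 51 alternative values, 36 stayed within the set limits and 15 moved. Staying within the limits does not mean unchanged. Peaks away from promoters, 13 in the main setting, were 18 with at least 50% of the peak required and 9 with starts of every biotype. Both of these values were within the limits. Without the margin of 20 kb the genes had 20 peaks, 7 of them away from promoters. In the first part of the ranked list, up to position 7674, they had 15, with a median length of 1950 bp, a median position of 3204 and 3 away from promoters. Merging peaks no more than 1000 bp apart left 18, with a median length of 1350 bp, a median position of 4989.5 and 8 away from promoters. A promoter of 5 kb on both sides also left 8 away from promoters. Fewer bases searched, fewer peaks kept or fewer peaks after joining are the construction of these alternatives. In whole peaks the MEIS core was in 40.0% (25.7% of all peaks), the homeodomain core in 20% (6.27%) and the GC box in 62.9% (61.4%), and in 600 bp the GC box was in 54.3%, against 66.7% of all peaks. The GC box share of the members was thus below that of all peaks in 300 bp and 600 bp and not in whole peaks. Members with a promoter peak numbered 7 in each alternative except 1: with at least 50% of the peak in the window they numbered 5, without Meis1 and Irx3. The Meis1 peak of 7300 bp is too long to reach 50% in this window. The Irx3 peak of 2500 bp lies mostly beyond the window. This change too follows from the construction of the alternative. No paired analysis was possible because the authors deposited 1 list for all samples, which carries no replicate numbers. For the same reason no sample could be left out, and the list does not show the depth of a peak.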

Other observations

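Widening the margin from 20 kb to 50 kb added 5 peaks, 4 beyond Pbx2 and 1 beyond Meis3. Those beyond Pbx2 lay at the promoters of Ppt2 (600 bp, position 4231), Prrt1 (250 bp, position 8846) and Atf6b (500 bp, position 5845), and 1 of 300 bp at position 8574 lay at no protein-coding promoter. Around Meis1, Meis2, Pbx3, Shox2, Irx3 and Irx5 no peak was added. The nearest further peak was 231828 bp from Shox2, 129365 bp from Meis2, 124033 bp from Irx3, 120818 bp from Meis1, 83664 bp from Irx5 and 63058 bp from Pbx3. The one near Irx5 stood at position 711 with a length of 1100 bp, ahead of every peak of Irx5 itself, and lay downstream at no protein-coding promoter.

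Irx3 and Irx5 lie 555557 bp apart on chromosome 8. Between them 5 peaks lay more than 20 kb from both genes. They were 200 to 300 bp long, stood at positions 10587 to 14776 and lay at no protein-coding promoter.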
